A study of Rattus norvegicus with 14 samples.

Results

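The genes described here are those of the rat major histocompatibility complex (MHC) and of antigen presentation. They are the rows of the count table whose symbol begins with RT1-, the prefix of rat MHC genes, together with B2m, Tap1, Tap2, Tapbp, Psmb8, Psmb9, Psmb10, Psme1, Psme2, Ciita, Cd74 and Erap1. The rule gave 60 of the 16816 genes in the table. Nlrc5, the remaining symbol of the rule, had no row in the table used. The class I set held 39 genes (38 RT1 rows and B2m), the class II set 12 (10 RT1 rows, Ciita and Cd74) and the processing and loading set 9. Of the 60, 47 had enough counts to be tested in at least 1 comparison and 6 had no count in any library.

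RNA was measured by RNA-seq in PCCL3 cells, a rat thyroid follicular line that grows in thyrotropin-containing medium. The cells carried a stably transfected human PAX8-PPARG fusion protein with a myc tag (PPFP), the product of a gene rearrangement of follicular thyroid carcinoma, or the empty vector (EV). Each line received vehicle (DMSO) or 1 μM pioglitazone, an agonist of PPARG, for 16 hours, which gave 4 groups, EV-Pio, EV+Pio, PPFP-Pio and PPFP+Pio, with 3 libraries each from 3 independent experiments. Every group shares the PCCL3 background and the endogenous Pax8 gene. Each genotype was represented by its own transfected line, so the fusion and any other difference between the lines cannot be told apart.

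Class I molecules, a heavy chain paired with β2-microglobulin, display peptides made by the proteasome in the cytosol. The peptides are cut by the immunoproteasome, carried into the endoplasmic reticulum by the Tap1-Tap2 transporter, trimmed by Erap1 and loaded with the help of tapasin, the product of Tapbp. Class II molecules are α-β heterodimers that load peptides of endocytosed protein. The invariant chain Cd74 guards their groove and the DM heterodimer exchanges the peptide. Class II genes are switched on by the transactivator Ciita through X and Y boxes of their promoters, in professional antigen-presenting cells and, under interferon-γ, in other cells such as thyrocytes. Class I and processing genes respond to interferon through interferon-stimulated response elements (ISRE), and κB sites bind NF-κB, a factor activated by inflammatory signals such as TNF.

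Promoter sequence was read from RefSeq windows of the GRCr8 assembly, 250 bases before to 50 after each annotated start, which were matched by symbol for 50 of the 60 genes. The letters CCAAT of the Y box (both strands) were in all 10 class II windows, 22 of the 32 class I windows, 2 of the 8 processing and loading windows and 37.5% of the 33469 windows of all genes. The X2 box TGACGTCA was in 1 of the 10, that of RT1-Ba, and in 1.83% of all windows. The ISRE was searched as GAAA, any 2 bases, GAAA on both strands. It was in 6 of the 8 processing and loading windows, 4 of the 32 class I windows, 0 of the 10 class II windows and 3.92% of all windows. The κB site, searched as GGGA, any 4 bases, CC on both strands, was in 15 class I, 4 class II and 2 processing windows and in 19.3% of all. Direct repeats of AGGTCA with 1 base between them, the PPAR response element, were in none of the 50 windows and in 0.0538% of all windows. These matches describe letters only, and some overlap, as both κB matches of B2m do.

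The class II stretches below are those of 4 RT1 genes that fell under pioglitazone in PPFP cells. RT1-DMb and Ciita, which also fell, were not matched to a window. Cd74, which also fell and is not shown, holds a Y box at position -189 and a κB match at -155 from its start. All run 5′ to 3′ on the strand of the gene, with the Y box (and, for RT1-Ba, the κB match and X2 box before it) in capitals. RT1-Ba lies at chr20:4576911-4577038 (plus strand), RT1-Da at chr20:4515346-4515390 (plus strand), RT1-Db1 at chr20:4560193-4560262 (minus strand) and RT1-DMa at chr20:4712345-4712419 (minus strand).
RT1-Ba: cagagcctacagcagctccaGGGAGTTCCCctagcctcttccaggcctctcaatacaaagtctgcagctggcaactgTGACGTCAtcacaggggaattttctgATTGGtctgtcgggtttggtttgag
RT1-Da: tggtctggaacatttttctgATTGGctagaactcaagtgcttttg
RT1-Db1: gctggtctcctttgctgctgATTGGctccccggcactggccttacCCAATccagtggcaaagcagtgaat
RT1-DMa: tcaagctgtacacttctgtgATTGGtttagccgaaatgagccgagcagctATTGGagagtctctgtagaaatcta

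The class I and processing stretches below are shown because these 7 genes passed the test in at least 1 comparison and hold an ISRE. The ISRE and any κB match are in capitals. B2m lies at chr3:129549160-129549222 (plus strand), RT1-S3 at chr20:2675396-2675445 (plus strand), Psmb8 at chr20:4657006-4657055 (minus strand), Psmb10 at chr19:50743280-50743385 (minus strand), Tap1 at chr20:4668569-4668684 (minus strand), Tap2 at chr20:4652308-4652357 (minus strand) and Tapbp at chr20:4967868-4967958 (minus strand). The 7 did not move in a single direction, since Tapbp fell where Psmb8, Tap2 and B2m rose.
B2m: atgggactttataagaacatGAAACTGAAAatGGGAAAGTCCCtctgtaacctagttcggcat
RT1-S3: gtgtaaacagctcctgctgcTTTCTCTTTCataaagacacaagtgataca
Psmb8: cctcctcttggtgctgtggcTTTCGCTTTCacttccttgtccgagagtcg
Psmb10: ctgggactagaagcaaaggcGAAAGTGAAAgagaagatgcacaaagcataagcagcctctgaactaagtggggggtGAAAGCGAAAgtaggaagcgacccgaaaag
Tap1: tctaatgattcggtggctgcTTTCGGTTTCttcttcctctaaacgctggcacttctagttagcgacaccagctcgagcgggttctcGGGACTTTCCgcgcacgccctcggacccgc
Tap2: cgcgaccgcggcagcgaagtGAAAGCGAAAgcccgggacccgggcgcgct
Tapbp: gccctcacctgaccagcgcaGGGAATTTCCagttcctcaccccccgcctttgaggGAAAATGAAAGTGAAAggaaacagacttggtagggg

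**Figure D1:**
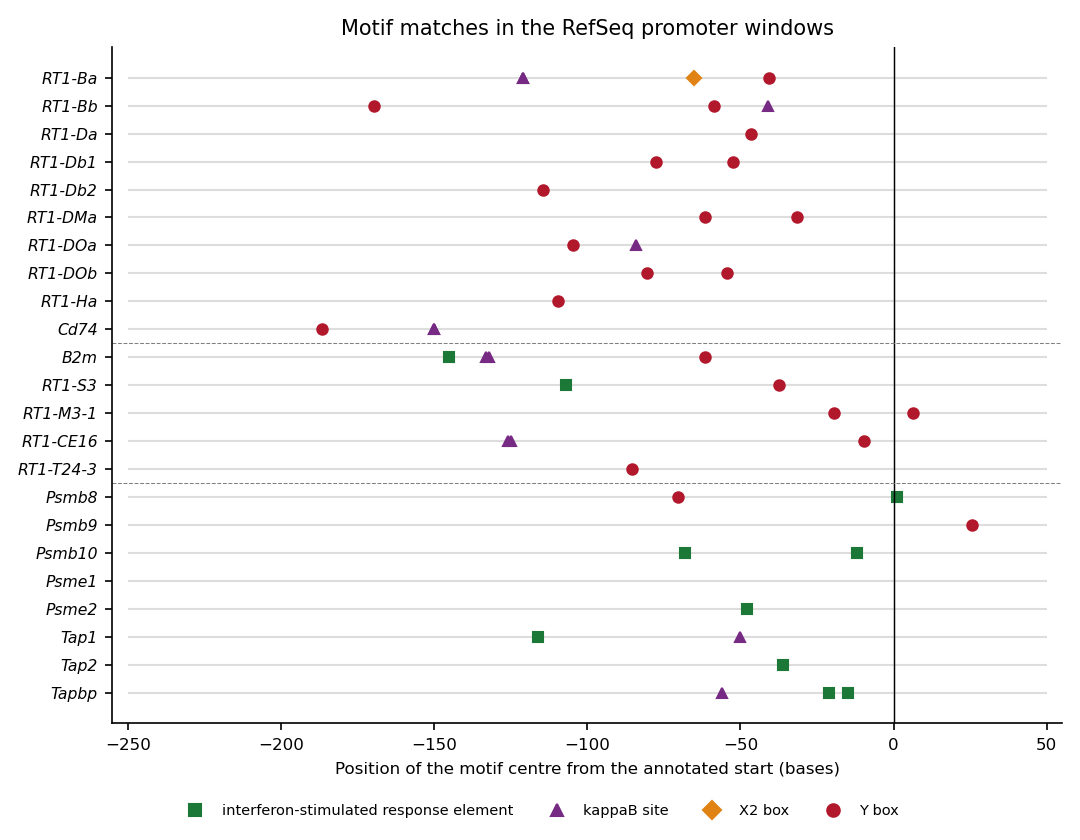
Position of each motif match in the RefSeq promoter window of 23 genes, in bases from the annotated start (x axis), with class II genes above, class I genes between the dashed lines and processing genes below. Y boxes stand in all 10 class II windows and ISRE matches in 6 of the 8 processing windows.

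The libraries held 23724703 to 35240176 counts. Pparg, the check of the fusion, stood at 1.79, 1.81 and 1.20 CPM (counts scaled to a common library total) in EV-Pio and 46.9, 60.4 and 55.2 in PPFP-Pio, and counts of the rat gene and of the human fusion cannot be told apart. The 10 thyrocyte markers summed to 9889 to 13540 CPM in EV-Pio, 10553 to 14172 in EV+Pio, 13535 to 14186 in PPFP-Pio and 10027 to 10277 in PPFP+Pio, most of it from Tg. The sum was lower in PPFP+Pio than in PPFP-Pio with no overlap, in the comparison in which the class II genes fell. Of 9 tested, 2 were higher and 4 lower in PPFP-Pio than in EV-Pio. Among them Tg and Pax8 fell and Duox2 rose under pioglitazone in PPFP cells, and Foxe1 was lower (-2.72 ± 0.11) and Duox2 higher in PPFP-Pio. Of 14 leukocyte and antigen-presenting cell markers in the table, 8 had at most 3 counts in every library, Itgam, Lyz2 and Cd163 had none and Ptprc had 1 count in a single library. The whole list summed to 6.04 to 7.03 CPM in EV-Pio, 5.83 to 6.68 in EV+Pio, 5.22 to 6.75 in PPFP-Pio and 5.87 to 6.08 in PPFP+Pio, most of it from Cd14. In that list Fcer1g (log2 fold change 1.84 ± 0.50, adjusted p = 0.019) and Cd68 (0.86 ± 0.30, adjusted p = 0.048) were higher in PPFP-Pio than in EV-Pio at 1.19 CPM or less. With pioglitazone in both lines they were higher by 1.19 (adjusted p = 0.023) and 1.18 (adjusted p = 0.016). In both comparisons Fcer1g passed the filter on low counts through its PPFP libraries alone. Cd14 had the opposite sign, at -0.41 ± 0.18, adjusted p = 0.092 without and -0.44 ± 0.15, adjusted p = 0.038 with pioglitazone in both lines. The part of these markers in the results was not tested. In bulk RNA, fewer cells that express a gene and less RNA per cell cannot be told apart.

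Of 10 tested class II genes, 4 were higher in PPFP than in EV cells in the absence of the drug, where 22.0% of all genes were higher and 45.2% were called in either direction. The 4 include RT1-DOb, which passed the filter on low counts through its PPFP libraries alone. In PPFP cells given pioglitazone 7 of the 10 fell, against 7.13% of all genes. Values are CPM scaled by trimmed mean of M values (TMM), fold changes are log2 ± SE, and a gene is called where its Benjamini-Hochberg adjusted p from the quasi-likelihood test of edgeR over all genes is under 0.05. Ciita, the class II transactivator, was measured at 5.54, 3.09 and 5.83 CPM in EV-Pio, 5.64, 2.31 and 5.03 in EV+Pio, 9.42, 9.14 and 8.95 in PPFP-Pio and 5.19, 3.54 and 3.54 in PPFP+Pio. The 3 PPFP-Pio libraries lay above all 9 others. Ciita was higher in PPFP-Pio than in EV-Pio by a log2 fold change of 0.93 ± 0.23, adjusted p = 0.014, and pioglitazone changed it in PPFP cells by -1.16 ± 0.16, adjusted p = 0.0062. In EV cells the drug gave -0.15 ± 0.38, adjusted p = 1.00.

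RT1-Da and RT1-Ba, the α chains of the rat class II molecules D and B, were also highest in PPFP-Pio. RT1-Da stood at 14.5, 12.8 and 8.36 CPM in EV-Pio, 13.6, 10.6 and 6.64 in EV+Pio, 23.1, 21.0 and 21.8 in PPFP-Pio and 8.52, 7.83 and 7.48 in PPFP+Pio. PPFP-Pio was again above every other library, and replicate 3 was the lowest of each EV group. Its log2 fold change was 0.89 ± 0.19, adjusted p = 0.0076 for PPFP-Pio against EV-Pio and -1.46 ± 0.08, adjusted p = 0.00037 for pioglitazone in PPFP cells, the largest fall among the members. RT1-Ba stood at 15.8, 12.4 and 7.73 CPM in EV-Pio, 15.2, 11.4 and 6.04 in EV+Pio, 21.8, 22.6 and 22.6 in PPFP-Pio and 10.5, 12.6 and 12.3 in PPFP+Pio. Its changes were 0.90 ± 0.23, adjusted p = 0.016 and -0.91 ± 0.10, adjusted p = 0.0023 in the same 2 comparisons. The call for pioglitazone was lost when all 12 libraries shared a single fit (adjusted p = 0.075).

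The invariant chain and the β chain of the D molecule showed the same order of PPFP-Pio over PPFP+Pio. Cd74 was measured at 62.2, 53.5 and 28.6 CPM in EV-Pio, 55.9, 49.5 and 25.4 in EV+Pio, 71.0, 69.1 and 70.7 in PPFP-Pio and 43.0, 45.7 and 43.2 in PPFP+Pio. Replicate 3 of EV-Pio and of EV+Pio was well below the others of its group. PPFP-Pio exceeded every EV-Pio library, but the difference missed the threshold (0.55 ± 0.25, adjusted p = 0.11), and was called by the exact test (0.031), whereas the fall under pioglitazone in PPFP cells passed it (-0.66 ± 0.06, adjusted p = 0.0012). RT1-Db1 stood at 77.9, 64.5 and 48.1 CPM in EV-Pio, 70.8, 63.4 and 48.6 in EV+Pio, 84.7, 79.9 and 84.4 in PPFP-Pio and 56.3, 55.6 and 54.4 in PPFP+Pio. It gave 0.39 ± 0.16, adjusted p = 0.089 against EV-Pio and -0.57 ± 0.05, adjusted p = 0.0014 under pioglitazone. Cd74 also lost its call for pioglitazone in the fit of all 12 libraries (adjusted p = 0.18), while RT1-Db1 kept it.

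The genes of the peptide exchange factor DM were not called between PPFP-Pio and EV-Pio. RT1-DMb was measured at 139, 134 and 126 CPM in EV-Pio, 138, 135 and 130.2 in EV+Pio, 113, 119 and 124 in PPFP-Pio and 89.8, 96.8 and 93.4 in PPFP+Pio. It was lowest in PPFP+Pio and not raised in PPFP-Pio. PPFP+Pio lay below EV+Pio (-0.51 ± 0.07, adjusted p = 0.00079) and below PPFP-Pio (-0.33 ± 0.06, adjusted p = 0.016), and PPFP-Pio against EV-Pio gave -0.17 ± 0.08, adjusted p = 0.12. RT1-DMa stood at 41.2, 31.4 and 40.1 CPM in EV-Pio, 39.6, 28.1 and 41.2 in EV+Pio, 41.2, 42.2 and 42.3 in PPFP-Pio and 31.8, 34.5 and 34.9 in PPFP+Pio. In the quasi-likelihood test without the block its only call was for pioglitazone in PPFP cells (-0.30 ± 0.07, adjusted p = 0.028). RT1-DMa lost its call for pioglitazone without replicate 2 or 3 of either PPFP group (adjusted p = 0.063 to 0.12), in the exact test (0.11) and in the fit of all 12 libraries (0.21). RT1-DMb lost its call without the same 4 libraries (0.051 to 0.076).

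The remaining class II rows were low. RT1-DOb, a chain of the DM inhibitor DO, had 4, 3 and 1 counts in EV-Pio, 3, 2 and 1 in EV+Pio, 11, 26 and 26 in PPFP-Pio and 6, 13 and 28 in PPFP+Pio. No EV library reached the lowest PPFP library. The difference between PPFP-Pio and EV-Pio was 3.14 ± 0.60, adjusted p = 0.004, and its size rests on at most 4 counts per EV library. RT1-DOb passed the filter on low counts through PPFP-Pio alone, so only a higher level there could be called. The call is therefore a description and not separate support. RT1-DOa, the other DO chain, went the other way at too few counts to be tested, with 6, 6 and 3 in EV-Pio, 11, 7 and 2 in EV+Pio, 0 in every PPFP-Pio library and 1, 0 and 0 in PPFP+Pio. RT1-Bb, the β chain of the B molecule, and RT1-Db2, at 0.41 to 2.06 CPM, passed the main test in no comparison unless the replicate number was fitted as a block. Pioglitazone in PPFP cells gave -0.97 ± 0.39, adjusted p = 0.16 for RT1-Bb and -0.58 ± 0.19, adjusted p = 0.096 for RT1-Db2, with 0.0018 and 0.013 under the block. RT1-Ha had at most 9 counts in any library.

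Counted over the class, 4 of 10 tested class II genes were called in PPFP-Pio against EV-Pio, all 4 higher. The 4 include RT1-DOb, which passed the filter on low counts through PPFP-Pio alone. RT1-DOa and RT1-Ha, with more counts in EV than in PPFP cells, were not tested. Over all 10264 genes tested, 45.2% were called, 22.0% higher and 23.1% lower. The median class II change was 0.48, against 0.0016 over all genes, and 8 of the 10 had no overlap between the groups, against 56.5% of all genes. Under pioglitazone in PPFP cells 7 of 10 were called, all 7 lower, against 14.8% of all 10064 genes (7.63% higher and 7.13% lower). All 10 had a negative fold change, with a median of -0.62 against 0.012 over all genes, and 9 of 10 had no overlap against 34.4%. With the replicate number as a block 9 of the 10 were lower, all but RT1-DOb, against 51.6% of all genes called and 23.9% lower. With pioglitazone in both lines, 1 of 9 was called, RT1-DMb, against 52.7% of 10291 genes (26.3% higher and 26.4% lower), and the median was -0.11. The other 8 class II genes tested missed the threshold, with Ciita at -0.08 ± 0.34, Cd74 at 0.03 ± 0.26 and RT1-Da at -0.36 ± 0.24. Summed over the 10 RT1 class II rows, the level was 261 ± 29.8 CPM (SD, n = 3) in EV-Pio and 256 ± 23.3 in EV+Pio. The sum was 292 ± 6.15 in PPFP-Pio and 205 ± 5.17 in PPFP+Pio. Replicate 1 of EV-Pio, at 292.1, lay above replicates 1 and 2 of PPFP-Pio, at 288.1 and 288.8. The comparisons between lines and between treatments share the PPFP-Pio or PPFP+Pio libraries, so they are not independent.

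**Figure D2:**
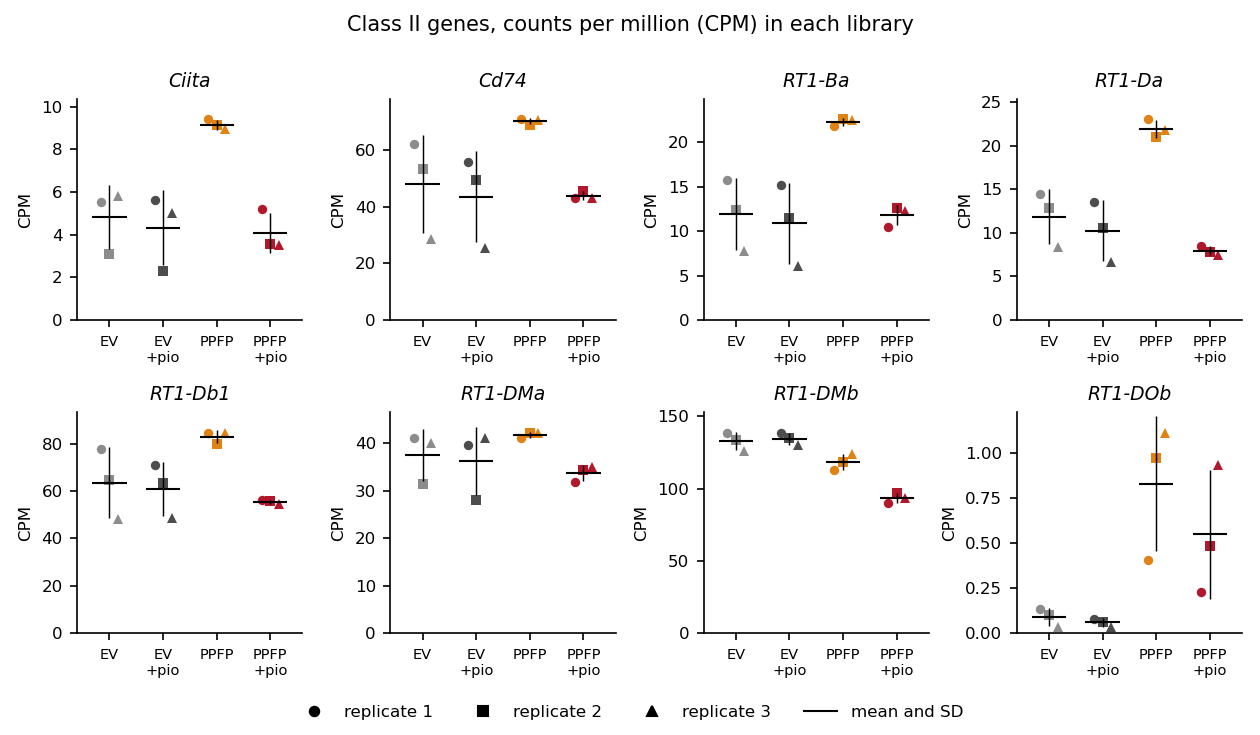
CPM of 8 class II genes (y axes from 0) in each library of the 4 groups, with symbols for the replicate, a bar for the mean and a vertical line for the SD of 3 libraries. For Ciita, RT1-Ba and RT1-Da the 3 PPFP-Pio libraries stand above the other 9.

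Whether the drug acted differently in the lines was tested by the interaction over the 12 libraries. All 10 class II genes had a more negative response in PPFP than in EV cells, with a median difference of -0.54 against -0.0043 over all genes, but none of the 10 passed the threshold. RT1-DMb (-0.36 ± 0.09, adjusted p = 0.059) and RT1-Da (-1.26 ± 0.34, adjusted p = 0.084) came nearest, and RT1-Da was called without replicate 3 of EV+Pio (-1.49, adjusted p = 0.020). The likelihood ratio test called RT1-Da (0.015) and DESeq2 called RT1-Da (0.010) and RT1-DMb (0.0040). Ciita gave -1.01 ± 0.45, adjusted p = 0.36 and Cd74 -0.54 ± 0.41, adjusted p = 0.7. Within each line the libraries of the same replicate number deviated together, and with the replicate number as a block 7 of the 10 differed, all more negative in PPFP cells. The adjusted p was then 8.2e-07 for RT1-Da, 0.00057 for Ciita, 1.1e-05 for Cd74 and 6.0e-05 for RT1-DMb. In that fit, however, 34.3% of all 10482 genes differed (17.2% higher and 17.1% lower), against 2.64% without the block (1.38% higher and 1.26% lower).

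Among class I genes the light chain was called in both comparisons of the lines while most heavy chain rows were not. B2m, which encodes β2-microglobulin, was measured at 1222, 1207 and 1144 CPM in EV-Pio, 1235, 1285 and 1161 in EV+Pio, 1786, 1646 and 1733 in PPFP-Pio and 2145, 2071 and 1990.5 in PPFP+Pio. The 6 PPFP libraries lay above the 6 EV libraries, and PPFP+Pio lay above PPFP-Pio. The differences were 0.53 ± 0.08, adjusted p = 0.0013 without and 0.77 ± 0.08, adjusted p = 0.00026 with pioglitazone, and the drug raised B2m in PPFP cells by 0.28 ± 0.05, adjusted p = 0.012. The response to the drug was higher by 0.22 ± 0.10, adjusted p = 0.36 in PPFP than in EV cells, with 0.0048 under the block. Leaving out replicate 2 or 3 of PPFP-Pio or replicate 2 of PPFP+Pio lost the call of the rise under pioglitazone (adjusted p = 0.056 to 0.072), and the edgeR exact test gave 0.11.

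RT1-S3, a class Ib gene, was highest in PPFP-Pio, as Ciita and RT1-Da were. It stood at 55.3, 52.1 and 55.7 CPM in EV-Pio, 51.6, 48.7 and 59.6 in EV+Pio, 76.9, 76.2 and 79.5 in PPFP-Pio and 43.0, 48.5 and 48.1 in PPFP+Pio. PPFP-Pio was above the other 9 libraries. It was higher in PPFP-Pio than in EV-Pio (0.51 ± 0.07, adjusted p = 0.0011) and fell under pioglitazone in PPFP cells (-0.73 ± 0.07, adjusted p = 0.0019). RT1-S3 was the single member of 47 tested whose response to pioglitazone differed between the lines in the quasi-likelihood test without the block (-0.71 ± 0.12, adjusted p = 0.0092). Over all 10482 genes tested, 2.64% differed in that test, so a single call among the members is near the share of all genes.

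RT1-M3-1, a class Ib gene related to the mouse molecule that presents N-formylated peptides, had the most negative fold change between the lines among the tested members. It was measured at 16.4, 17.1 and 14.9 CPM in EV-Pio, 16.6, 18.4 and 14.2 in EV+Pio, 3.94, 7.09 and 6.47 in PPFP-Pio and 3.10, 5.22 and 5.07 in PPFP+Pio. The highest PPFP library stood at 7.09 CPM and the lowest EV library at 14.2. The gene was lower in PPFP cells without (-1.47 ± 0.21, adjusted p = 0.0012) and with pioglitazone (-1.86 ± 0.22, adjusted p = 0.00039). Pioglitazone in PPFP cells gave -0.37 ± 0.29, adjusted p = 0.48, and 0.0069 with the block. RT1-T24-3, of the T region, was near the limit of detection in EV cells, with 3, 2 and 3 counts in EV-Pio and 7, 2 and 5 in EV+Pio, and had 13, 15 and 13 in PPFP-Pio and 16, 11 and 22 in PPFP+Pio. Every PPFP library exceeded every EV library, by 2.51 ± 0.39, adjusted p = 0.0016 without and 2.01 ± 0.45, adjusted p = 0.0075 with the drug. RT1-T24-3 passed the filter on low counts through its PPFP libraries alone, so only a higher level there could be called. Both calls are therefore a description and not separate support.

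RT1-CE16 held the most counts of the RT1 class I rows. It stood at 278, 238 and 269.9 CPM in EV-Pio, 288, 249 and 281 in EV+Pio, 261, 267 and 254 in PPFP-Pio and 222, 226 and 232 in PPFP+Pio. PPFP+Pio was lower than PPFP-Pio (-0.19 ± 0.05, adjusted p = 0.047) and than EV+Pio (-0.25 ± 0.09, adjusted p = 0.045), while PPFP-Pio and EV-Pio differed by -0.01 ± 0.09, adjusted p = 0.95. Both calls lay at the threshold. The first was lost without any single library of its comparison (adjusted p = 0.051 to 0.15) and the second without any single library other than replicate 2 of EV+Pio (0.059 to 0.11). In the exact test the values were 0.34 and 0.13, and the first was also lost with no filter on low counts (0.058) and in the fit of all 12 libraries (0.13).

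Of the other rows, 3 were called with pioglitazone in both lines only. RT1-CE2 was measured at 7.26, 6.58 and 6.13 CPM in EV-Pio, 7.86, 6.07 and 6.29 in EV+Pio, 4.78, 5.07 and 6.51 in PPFP-Pio and 4.35, 4.74 and 4.91 in PPFP+Pio, and PPFP+Pio was lower than EV+Pio by -0.52 ± 0.16, adjusted p = 0.028. RT1-CE12 had 38, 16 and 34 counts in EV+Pio and 13, 10 and 12 in PPFP+Pio, with 24, 18 and 37 in EV-Pio and 18, 11 and 10 in PPFP-Pio (-1.09 ± 0.38, adjusted p = 0.045). RT1-T24-1 had 15, 7 and 8 in EV+Pio and 14, 22 and 22 in PPFP+Pio, with 8, 15 and 14 in EV-Pio and 13, 21 and 14 in PPFP-Pio (1.18 ± 0.34, adjusted p = 0.022). In CPM, all 3 PPFP+Pio libraries of each row lay on the same side of all 3 EV+Pio libraries. The counts of RT1-T24-1 overlapped, while its CPM were 0.407, 0.225 and 0.279 in EV+Pio and 0.530, 0.820 and 0.734 in PPFP+Pio. Each lost its call when single libraries were left out: RT1-CE2 without replicate 1 of EV+Pio or any PPFP+Pio library (adjusted p = 0.058 to 0.091), RT1-CE12 without any library other than replicate 2 of EV+Pio (0.074 to 0.12) and in DESeq2 (0.054) and RT1-T24-1 without replicate 2 of EV+Pio or replicate 2 or 3 of PPFP+Pio (0.066 to 0.089).

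The remaining 20 tested class I rows passed the main test without the block in no comparison. Some of them passed with the replicate number as a block or with libraries scaled by size alone. RT1-A2, of the classical RT1-A region, held the most counts of them, at 71.9 to 119 CPM. RT1-CE15 was set apart by a single library, with 1.03 CPM in replicate 3 of EV-Pio and 6.47 to 8.19 in the other 11. That library gave RT1-CE15 the largest positive response to pioglitazone in EV cells (0.65 ± 0.58, adjusted p = 1.00). Reads that match several class I rows may have been dropped or assigned to a related row when genes were counted, so the levels of single rows are uncertain. Summed over the 38 RT1 class I rows, the level was 688 ± 65.7 CPM (SD, n = 3) in EV-Pio, 697 ± 15.9 in EV+Pio, 722 ± 9.27 in PPFP-Pio and 601 ± 15.9 in PPFP+Pio. The 3 PPFP+Pio sums lay below those of PPFP-Pio and EV+Pio.

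Over the class, 4 of 28 tested class I genes were called between PPFP-Pio and EV-Pio (3 higher and 1 lower, median 0.054), 7 of 28 with pioglitazone in both lines (3 higher and 4 lower, median -0.23) and 3 of 28 for pioglitazone in PPFP cells (1 higher and 2 lower, median -0.23). The shares of all genes for these comparisons were 45.2%, 52.7% and 14.8%. The genes called higher between the lines include RT1-T24-3, which passed the filter on low counts through its PPFP libraries alone. With pioglitazone in both lines 14 of the 28 had no overlap between the lines, against 62.9% of all genes, and scaling by library size alone gave 3 called higher and 11 lower. Under that scaling 54.3% of all genes were called in that comparison. With the replicate block 13 of the 28 changed under pioglitazone in PPFP cells, 12 of them lower, where 51.6% of all genes were called (27.7% higher and 23.9% lower). The heavy chain rows added by the block were RT1-A2, RT1-CE4, RT1-CE5, RT1-CE7, RT1-CE13, RT1-CE14, RT1-M3-1, RT1-M6-2, RT1-N3 and RT1-T24-4.

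Of the processing genes, Psmb8, Psmb10, Tap2 and Erap1 were higher and Tapbp lower in PPFP-Pio than in EV-Pio. Psmb8, a catalytic subunit of the immunoproteasome, was measured at 151, 113 and 170.0 CPM in EV-Pio, 142, 111 and 171 in EV+Pio, 307, 254 and 268 in PPFP-Pio and 329.6, 307 and 296 in PPFP+Pio. All 6 PPFP libraries exceeded all 6 EV libraries. The log2 fold change was 0.93 ± 0.15, adjusted p = 0.0021 without and 1.15 ± 0.16, adjusted p = 0.0009 with pioglitazone, and the drug in PPFP cells gave 0.18 ± 0.08, adjusted p = 0.2, and 0.00022 with the block. Psmb9, a partner subunit, stood at 79.0, 51.6 and 104 CPM in EV-Pio, 72.9, 44.9 and 96.0 in EV+Pio, 121, 106 and 112 in PPFP-Pio and 109.8, 111 and 109 in PPFP+Pio. PPFP exceeded EV in every pair of libraries, but replicate 2 was low and replicate 3 high in both EV groups, and the difference missed the threshold without (0.53 ± 0.22, adjusted p = 0.089) and with pioglitazone (0.63 ± 0.25, adjusted p = 0.067). Without replicate 3 of EV-Pio it was called (0.79, adjusted p = 0.010) and without replicate 2 it was 0.30 (adjusted p = 0.12). With pioglitazone it was called without replicate 3 of EV+Pio (0.89, adjusted p = 0.0093) and, at 0.38, without replicate 2 (adjusted p = 0.048). The exact test called both (adjusted p = 0.022 and 0.0094), DESeq2 the second (0.028).

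Psmb10, the remaining immunoproteasome subunit, was measured at 67.9, 47.1 and 88.4 CPM in EV-Pio, 61.0, 42.4 and 88.7 in EV+Pio, 131, 96.1 and 106 in PPFP-Pio and 88.8, 72.6 and 75.4 in PPFP+Pio. Its level was highest in PPFP-Pio, and in PPFP+Pio replicates 2 and 3 lay within the EV range and replicate 1 just above it. PPFP-Pio against EV-Pio gave 0.71 ± 0.22, adjusted p = 0.033, a call that was lost without replicate 1 or 2 of EV-Pio or replicate 1 or 3 of PPFP-Pio (adjusted p = 0.056 to 0.096). Pioglitazone in PPFP cells gave -0.48 ± 0.13, adjusted p = 0.054, and 1.7e-09 with the block, 0.0063 by both the exact test and DESeq2 and 0.026 with library size alone. As a share of the counts of Psmb5, Psmb6, Psmb7 and their immunoproteasome counterparts, not corrected for length, Psmb8, Psmb9 and Psmb10 made up 40.7%, 36.5% and 41.1% in EV-Pio, 40.0%, 35.1% and 41.1% in EV+Pio, 52.4%, 54.3% and 55.1% in PPFP-Pio and 50.7%, 55.9% and 55.9% in PPFP+Pio. The constitutive subunits summed to 440.3 ± 75.0, 429 ± 73.2, 429 ± 67.9 and 427 ± 75.4 CPM (SD, n = 3) in the same order of groups.

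Tap2, a subunit of the peptide transporter, gave the smallest adjusted p of the members in both comparisons of the lines. It stood at 101, 94.9 and 108 CPM in EV-Pio, 106, 94.4 and 114 in EV+Pio, 184, 186 and 179.5 in PPFP-Pio and 211, 217 and 219 in PPFP+Pio. The groups were ordered EV, PPFP-Pio, PPFP+Pio with no overlap between lines. It was higher in PPFP cells by 0.85 ± 0.08, adjusted p = 0.00015 without and 1.06 ± 0.10, adjusted p = 0.00012 with pioglitazone, and the drug raised it in PPFP cells by 0.25 ± 0.05, adjusted p = 0.018. That rise lost its call without replicate 2 or 3 of either PPFP group (adjusted p = 0.062 to 0.10), in the exact test (0.16), with library size alone (0.057) and in the fit of all 12 libraries (0.076). Its partner Tap1 was measured at 83.3, 67.6 and 90.9 CPM in EV-Pio, 84.6, 64.5 and 94.6 in EV+Pio, 102, 99.1 and 95.0 in PPFP-Pio and 107, 113 and 116 in PPFP+Pio. Tap1 was called with pioglitazone (0.48 ± 0.15, adjusted p = 0.027) and not without it (0.29 ± 0.11, adjusted p = 0.074), and the drug in PPFP cells gave 0.20 ± 0.06, adjusted p = 0.072, and 0.00057 with the block and 0.027 by DESeq2. The call with pioglitazone was lost without replicate 1 of EV+Pio or replicate 2 or 3 of PPFP+Pio (0.062 to 0.085) and with library size alone (0.076), and without replicate 3 of EV-Pio the other comparison was called (0.38, adjusted p = 0.026), while without replicate 2 of EV-Pio it was 0.18.

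Tapbp, which encodes tapasin, the bridge between the transporter and the class I heavy chain, moved the other way. It stood at 110.3, 89.5 and 108 CPM in EV-Pio, 111, 83.9 and 113 in EV+Pio, 73.9, 72.2 and 70.1 in PPFP-Pio and 48.5, 48.3 and 48.5 in PPFP+Pio. PPFP+Pio was the lowest group and PPFP-Pio lay between it and the EV groups, with no overlap. The changes were -0.51 ± 0.10, adjusted p = 0.0042 for PPFP-Pio against EV-Pio, -1.07 ± 0.13, adjusted p = 0.00042 with pioglitazone in both lines and -0.56 ± 0.05, adjusted p = 0.0014 for the drug in PPFP cells. In EV cells the drug gave -0.00 ± 0.14, adjusted p = 1.00, and the difference in response was -0.57 ± 0.16, adjusted p = 0.092, with 4.3e-06 under the block and 0.013 without replicate 2 of EV+Pio. It was called by the likelihood ratio test (0.044) and DESeq2 (0.039). Erap1, the trimming aminopeptidase, was measured at 189, 175 and 181 CPM in EV-Pio, 183, 164 and 188 in EV+Pio, 218, 214 and 224 in PPFP-Pio and 182, 180.4 and 179 in PPFP+Pio. It was higher in PPFP-Pio than in EV-Pio (0.27 ± 0.07, adjusted p = 0.019) and lower in PPFP+Pio than in PPFP-Pio (-0.26 ± 0.04, adjusted p = 0.011), with PPFP+Pio against EV+Pio at 0.03 ± 0.08. The first call was lost without replicate 3 of PPFP-Pio (adjusted p = 0.081), in the exact test (0.080) and with library size alone (0.065). The second was lost without replicate 3 of PPFP-Pio or replicate 2 or 3 of PPFP+Pio (0.057 to 0.066) and in the exact test (0.11).

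Psme1 and Psme2 encode the α and β subunits of the proteasome activator PA28. Psme1 stood at 331, 282 and 311 CPM in EV-Pio, 310.1, 256 and 304 in EV+Pio, 267, 263 and 274 in PPFP-Pio and 216, 230.5 and 226 in PPFP+Pio, and PPFP+Pio was below the other 3 groups. It was lower in PPFP+Pio than in EV+Pio (-0.36 ± 0.10, adjusted p = 0.02) and than in PPFP-Pio (-0.25 ± 0.05, adjusted p = 0.025). Psme2 was measured at 222, 157 and 238 CPM in EV-Pio, 197, 139.8 and 229 in EV+Pio, 249, 225 and 239.6 in PPFP-Pio and 229.9, 218 and 209.9 in PPFP+Pio. Its groups overlapped between the lines, and it was called in no comparison, although pioglitazone in PPFP cells gave -0.11 ± 0.06, adjusted p = 0.28, and 0.016 with the block. The 2 calls of Psme1 were lost without replicate 1 of EV+Pio or replicate 1 or 3 of PPFP+Pio (adjusted p = 0.051 to 0.058), and without replicate 2 or 3 of either PPFP group (0.054 to 0.11), in the exact test (0.17) and in the fit of all 12 libraries (0.079).

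**Figure D3:**
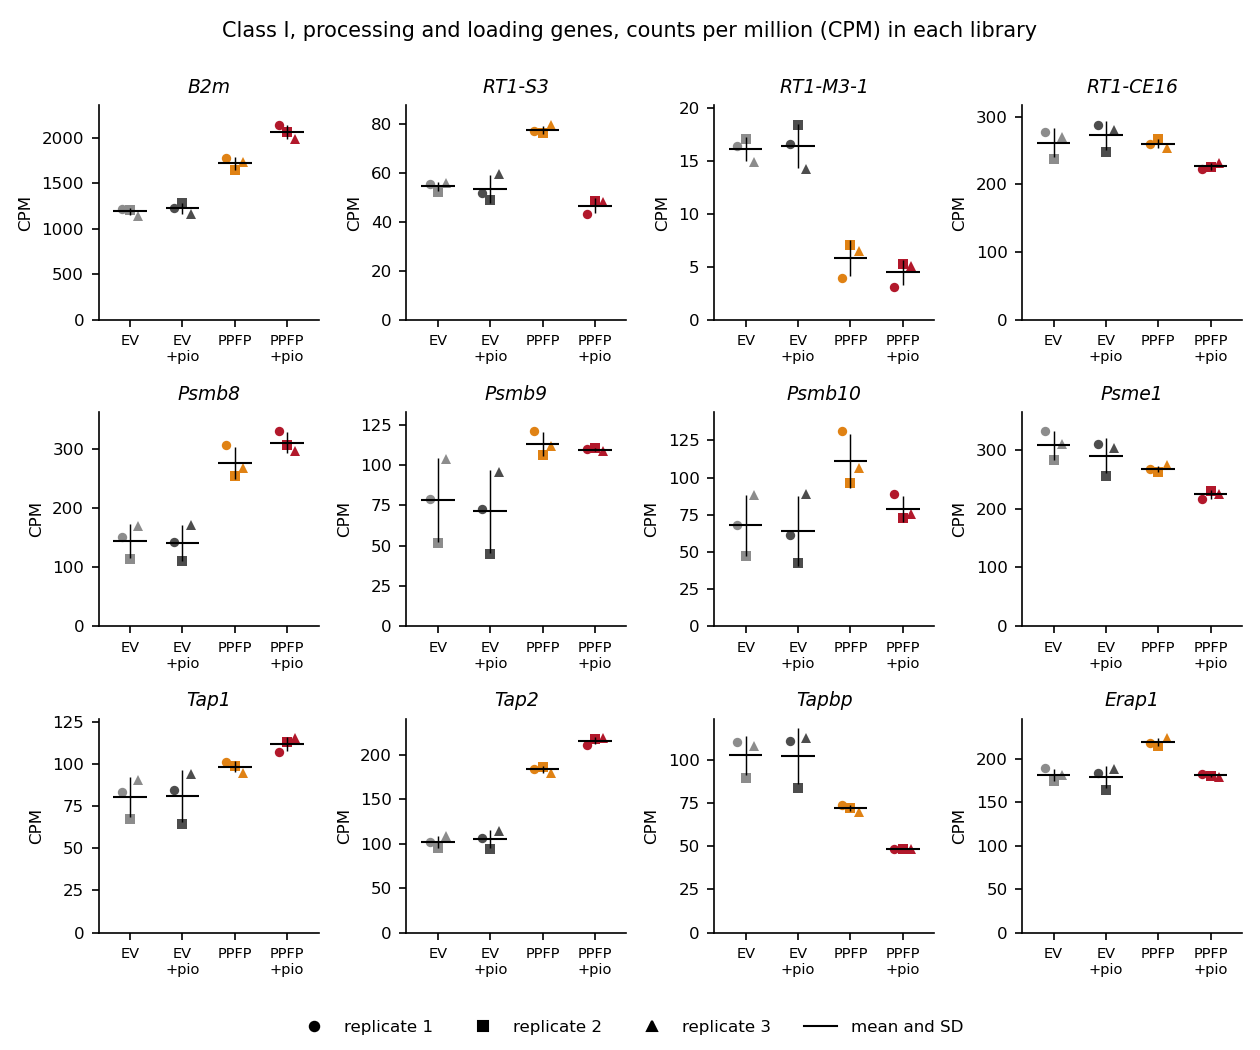
CPM of 4 class I and 8 processing and loading genes (y axes from 0) in each library of the 4 groups, with symbols for the replicate, a bar for the mean and a vertical line for the SD of 3 libraries. B2m, Psmb8 and Tap2 stand higher and Tapbp lower in the 6 PPFP libraries than in the 6 EV libraries.

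Of the 9 processing and loading genes, 5 were called between PPFP-Pio and EV-Pio (4 higher and 1 lower, median 0.29), 5 with pioglitazone in both lines (3 higher and 2 lower, median 0.31) and 4 for pioglitazone in PPFP cells (1 higher and 3 lower, median -0.11). Of all genes 45.2%, 52.7% and 14.8% were called in these comparisons. Scaling by library size alone gave 3 and 2, 2 and 2, and 0 and 4, against 46.8%, 54.3% and 14.7% of all genes called. With the block 8 of the 9 changed under the drug in PPFP cells (3 higher and 5 lower), all but Psmb9, against 51.6% of all genes. The response differed between the lines under the block for 7 of the 9, against 34.3% of all genes, with Tap1, Tap2 and Psmb8 higher in PPFP cells and Tapbp, Psmb10, Psme1 and Erap1 lower.

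Over all members, 13 of 47 were called between PPFP-Pio and EV-Pio (11 higher and 2 lower), 13 of 46 with pioglitazone in both lines (6 higher and 7 lower) and 14 of 47 for pioglitazone in PPFP cells (2 higher and 12 lower), against 45.2%, 52.7% and 14.8% of all genes. Scaled by library size alone, which moved the median of all genes to -0.080, -0.12 and -0.036, the counts higher and lower were 10 and 4, 5 and 14, and 1 and 14. Under that scaling 46.8%, 54.3% and 14.7% of all genes were called. The members called higher in PPFP cells include RT1-T24-3 and, without pioglitazone, RT1-DOb. Both passed the filter on low counts through PPFP libraries alone. Called changes above 2-fold were few, with RT1-DOb, RT1-T24-3 and RT1-M3-1 without pioglitazone, RT1-T24-1, RT1-T24-3, Tap2, Psmb8, RT1-M3-1, RT1-CE12 and Tapbp with it, and RT1-Da and Ciita under the drug in PPFP cells, where 14.6%, 19.7% and 2.42% of all genes passed both limits. With the block, 30 of the 47 changed under pioglitazone in PPFP cells (4 higher and 26 lower) and 20 differed in response between the lines (4 higher and 16 lower in PPFP cells), against 51.6% and 34.3% of all genes. In EV cells pioglitazone changed 0 of 45 members by edgeR, by DESeq2 and with the block, and none had an unadjusted p under 0.05. Over all 10146 genes, 0% were called there, 0.158% had an unadjusted p under 0.05 and 0.00986%, a single gene, was called with the block. The fold changes of members in EV cells ran from -0.44 to 0.65, with a median of -0.039.

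**Figure D4:**
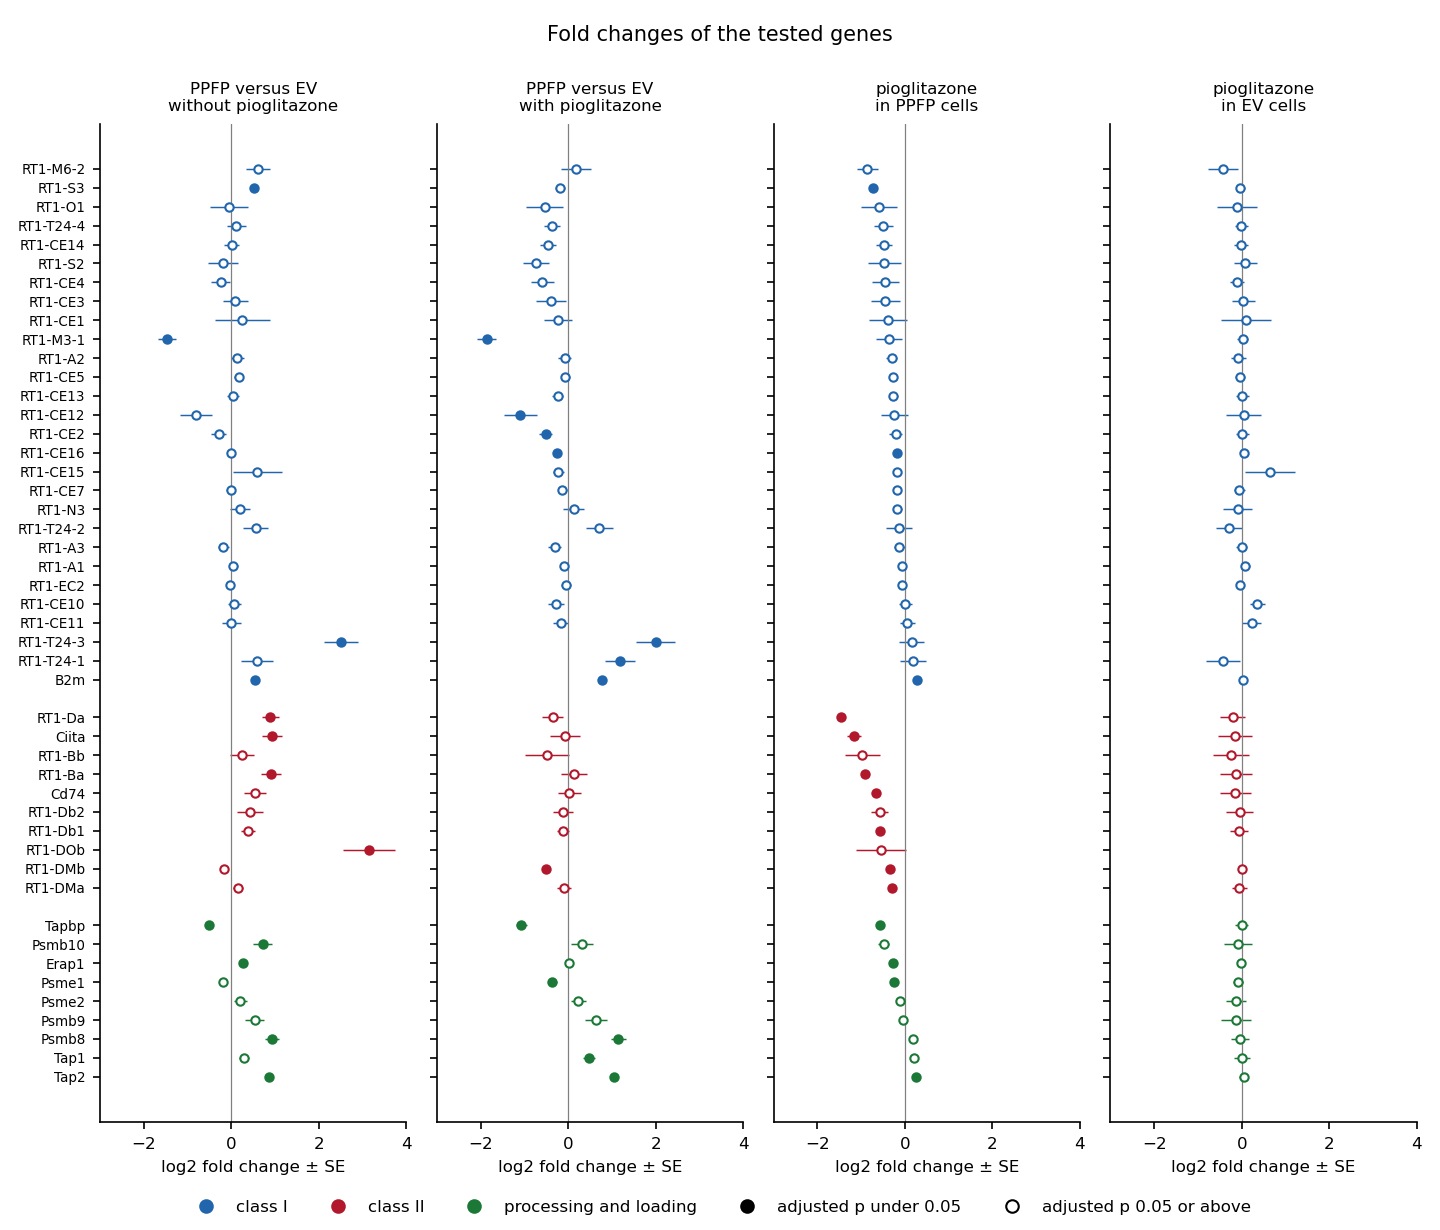
Log2 fold change ± SE of each tested gene (rows, by class) in 4 comparisons, with filled points for an adjusted p under 0.05. Class II points lie left of 0 under pioglitazone in PPFP cells (7 of 10 called) and no point is filled under pioglitazone in EV cells.

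**Figure D5:**
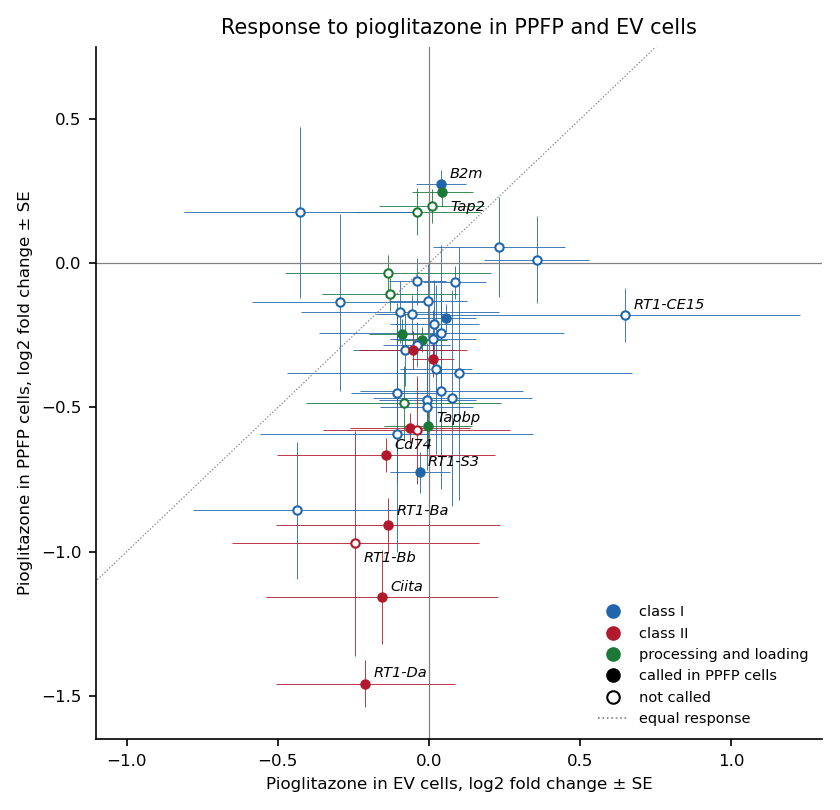
Log2 fold change ± SE under pioglitazone in PPFP cells (y axis) against EV cells (x axis), which share no library, with a dotted line of equal response. RT1-Da at -1.46 and Ciita at -1.16 are the lowest called genes in PPFP cells, and B2m and Tap2 are called above 0.

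Other genes of the pathway were taken from 5 lists, whose counts stand against 22.0% of all genes higher and 23.1% lower in PPFP-Pio than in EV-Pio, and 7.63% higher and 7.13% lower under pioglitazone in PPFP cells. Of 21 interferon signalling and MHC transcription factor genes, 6 were higher and 9 lower in PPFP-Pio than in EV-Pio, and 1 rose and 3 fell under pioglitazone in PPFP cells. Rfxap, a subunit of the RFX complex that binds the X box, stood at 40.3, 40.8 and 41.5 CPM in EV-Pio, 39.0, 37.2 and 42.5 in EV+Pio, 71.4, 68.4 and 66.2 in PPFP-Pio and 56.7, 51.0 and 54.4 in PPFP+Pio. It was higher in PPFP-Pio (0.75 ± 0.08, adjusted p = 0.00022) and fell under the drug (-0.33 ± 0.06, adjusted p = 0.015). Irf8, an interferon regulatory factor best known from myeloid and B cells, stood at 230.2, 154 and 164 CPM in EV-Pio, 271, 172 and 188 in EV+Pio, 557, 505 and 485 in PPFP-Pio and 918, 914 and 894 in PPFP+Pio. Unlike the class II genes, it rose in both steps, by 1.50 ± 0.16, adjusted p = 0.00027 and 0.83 ± 0.06, adjusted p = 0.00071. Irf1, which binds ISRE, was measured at 76.1, 62.2 and 75.8 CPM in EV-Pio, 68.6, 61.1 and 77.2 in EV+Pio, 96.0, 85.0 and 86.9 in PPFP-Pio and 72.5, 67.9 and 67.1 in PPFP+Pio, with 0.32 ± 0.10, adjusted p = 0.037 and -0.36 ± 0.06, adjusted p = 0.015. The fall of Irf1 was lost without replicate 3 of either PPFP group or replicate 2 of PPFP+Pio (adjusted p = 0.059 to 0.069).

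Of 15 class I folding and loading helpers, 4 were higher and 1 lower in PPFP-Pio than in EV-Pio, and none was called for pioglitazone in PPFP cells (1 higher and 6 lower with the block, against 27.7% and 23.9% of all genes). Hsp90b1, the chaperone of the endoplasmic reticulum also called GRP94, was measured at 1698, 1156 and 1899.6 CPM in EV-Pio, 1689, 1055 and 1958 in EV+Pio, 4324, 3598 and 3723 in PPFP-Pio and 3554, 2910.1 and 2797 in PPFP+Pio. Every PPFP library exceeded every EV library (1.29 ± 0.18, adjusted p = 0.001), and the drug in PPFP cells gave -0.32 ± 0.10, adjusted p = 0.097. Lnpep, an aminopeptidase of cross-presentation, was higher in PPFP-Pio (0.73 ± 0.12, adjusted p = 0.0017), and Calr, calreticulin, gave -0.43 ± 0.16, adjusted p = 0.14 under the drug. Hsp90b1 and Calr were called with the block (adjusted p = 2.8e-08 and 1.3e-09) and without replicate 1 of PPFP+Pio (0.023 and 0.032). Hsp90b1 was also called by DESeq2 (0.048) and with library size alone (0.039), and Calr by the exact test (0.0498). Of 7 constitutive proteasome genes, 1 was called in the comparison of the lines, the assembly factor Pomp (0.47 ± 0.10, adjusted p = 0.0064), with Psme4 next at 0.15 ± 0.07, adjusted p = 0.14. None of the 7 was called for pioglitazone in PPFP cells, where Psmf1 gave -0.11 ± 0.05, adjusted p = 0.2 (0.031 with the block) and Pomp -0.05 ± 0.06, adjusted p = 0.63.

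Of 10 tested class II proteases and costimulators, 4 were higher and 2 lower in PPFP-Pio than in EV-Pio, and 3 fell under pioglitazone in PPFP cells. Ctss, the protease that cuts the invariant chain in antigen-presenting cells, stood at 0.270, 0.268 and 0.0999 CPM in EV-Pio, 0.271, 0.0643 and 0.0349 in EV+Pio, 1.80, 2.24 and 1.80 in PPFP-Pio and 1.10, 0.783 and 0.901 in PPFP+Pio. PPFP-Pio was the highest group (3.17 ± 0.35, adjusted p = 0.00033 between the lines and -1.06 ± 0.20, adjusted p = 0.016 under the drug), at 2.24 CPM or less. Between the lines Ctss passed the filter on low counts through its PPFP libraries alone. The fall was lost without replicate 2 or 3 of either PPFP group (adjusted p = 0.06 to 0.083) and in the fit of all 12 libraries (0.085). Ctsl1, another cathepsin, was higher in PPFP-Pio (1.18 ± 0.14, adjusted p = 0.0004), and Ctsh fell under the drug (-0.38 ± 0.05, adjusted p = 0.0058). Of 4 tested class I-like genes outside the MHC, 1 was higher and 2 lower in PPFP-Pio and 1 fell under pioglitazone. Mr1, which presents vitamin metabolites, was measured at 4.42, 4.29 and 3.53 CPM in EV-Pio, 4.28, 4.56 and 3.67 in EV+Pio, 0.589, 1.01 and 1.11 in PPFP-Pio and 0.114, 0.447 and 0.634 in PPFP+Pio. It was lower in PPFP-Pio (-2.18 ± 0.26, adjusted p = 0.00048), and pioglitazone in PPFP cells gave -1.12 ± 0.53, adjusted p = 0.23, with 0.0034 under the block. Fcgrt, the neonatal Fc receptor chain, was lower in PPFP-Pio (-1.14 ± 0.16, adjusted p = 0.00085), and Hfe, a regulator of iron uptake, fell under the drug (-0.52 ± 0.08, adjusted p = 0.0092, and 0.052 without replicate 3 of PPFP-Pio). The 5 lists were chosen for their known roles and were not tested as sets.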

How the data were processed

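PCCL3 cells were profiled by paired-end RNA-seq in 4 groups of 3 libraries, 1 from each of 3 independent experiments. The authors aligned reads to rn4 with TopHat2 2.0.11 and counted read pairs per gene with HTSeq 0.6.1p1, and deposited raw counts, which were used as given. Reads that match several genes may have been left out of the counts, which can lower near-identical class I rows, and the annotation is not given in the sources used here. The ChIP-seq peaks (rn4) were not used because no annotation of that build was at hand. Low genes were removed by filterByExpr, libraries scaled by TMM, and changes tested by quasi-likelihood in edgeR 4.0.16 (R 4.3.3) on the 6 libraries compared, or on all 12 for the interaction, with Benjamini-Hochberg adjustment over all genes tested and calls at adjusted p < 0.05. The script was tested on simulated data. Library totals of 23724703 to 35240176 counts put 3 counts at 0.081 to 0.13 CPM.

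The rule gave values for the non-RT1 genes and each RT1 row called in a main test without the block. RT1-A2, RT1-Bb, RT1-CE15, RT1-Db2, RT1-DOa and RT1-Ha were added after their values were seen. From each of 5 lists the 2 genes with the smallest adjusted p for PPFP-Pio against EV-Pio, and for pioglitazone in PPFP cells, were named. Members and lists were chosen with earlier results of these data known. Same-numbered libraries of a line deviated together (correlations over genes of 0.59 to 0.85 in PPFP and 0.65 to 0.88 in EV cells), so the replicate number was also fitted as a block there. Across lines they did not (-0.48 to 0.42). Other alternatives were DESeq2 1.42.0, the edgeR exact or likelihood ratio test, other scalings and filters, 1 fit of all libraries and leaving out each library. Promoter windows were searched in Python 3.11.15.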

Additional observations from a re-analysis of the deposited data

Results flagged for a closer look

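RT1-S3 differed between the lines in its response to pioglitazone, by a log2 difference of -0.71 (PPFP cells minus EV cells, edgeR quasi-likelihood test of the interaction, adjusted p = 0.0092, over 3 libraries a group). It was the only member called of 47 tested, where 2.64% of all 10482 genes were called. Its level fell in 3 of 3 same-numbered pairs of PPFP libraries. It kept its call in every alternative run, with adjusted p between 4.4e-06 and 0.046.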

How the results depend on the processing

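The single results cover members, named genes of the other lists and Pparg. A run counts only where its filter kept the gene. For PPFP-Pio against EV-Pio, RT1-DOb, RT1-T24-3 and Ctss had 13 alternative runs and B2m had 14. Of 56 single results called, 36 kept direction and call in every alternative run that tested them. Another 20 lost the call in at least 1, and none of the 56 reversed. Of 36 that were not called, 26 were called in the same direction somewhere and 6 changed sign somewhere. The cause of a change was not tested, except that leaving out a library leaves fewer samples.

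Members called for pioglitazone in PPFP cells numbered 14, and 30 with the replicate block, 8 when all 12 libraries shared a fit and 7 to 16 without single libraries (7 without replicate 3 of PPFP-Pio or replicate 2 of PPFP+Pio, 8 without replicate 2 of PPFP-Pio or replicate 3 of PPFP+Pio). Of all genes, 14.8% were called there and 51.6% with the block. The fit of all 12 libraries called 11% and fits without single libraries 6.24% to 17%. Members whose response differed between the lines numbered 1, and 20 with the replicate block within each line, 3 by the likelihood ratio test, 4 by DESeq2, 2 with at least 10 counts in every library and 1 to 2 without single libraries (2 without replicate 2 or 3 of EV+Pio). The shares of all genes, in the same order, were 2.64%, 34.3%, 4.25%, 5.73%, 3.06% and 1.17% to 2.92%. With pioglitazone in both lines, 13 members became 7 to 18 without single libraries (7 without replicate 3 of PPFP+Pio), and without pioglitazone 13 became 11 to 16. Of all genes, 52.7% and 45.2% were called in these comparisons, and 41.3% to 55.3% and 33.2% to 46.8% without single libraries. Between the lines the replicate numbers did not pair, and the block gave 14 members without and 9 with pioglitazone, against 39.5% and 44.2% of all genes. There it ended the calls of Erap1 without (adjusted p = 0.065) and of RT1-CE2, RT1-CE12, RT1-CE16, RT1-T24-1 and Psme1 with pioglitazone (0.058 to 0.12), and added Psmb9 in both and Cd74 without it. No exact test exists for the interaction, so the likelihood ratio test took its place.

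Scaled by library size alone, the RT1 class I sum was 712 CPM in EV-Pio, 722 in EV+Pio, 706 in PPFP-Pio and 573 in PPFP+Pio. The RT1 class II sum was 270, 265, 286 and 195 CPM in the same order of groups.

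Results that changed sign were uncalled in the main test. Without single libraries, the log2 fold change with pioglitazone in both lines ran from -0.38 to 0.16 for Ciita, -0.26 to 0.23 for Cd74 (called at -0.26, adjusted p = 0.048, without replicate 3 of EV+Pio) and -0.034 to 0.054 for Erap1, and by library size alone it was -0.11 for Cd74 and -0.10 for Erap1. Psmb9 ran from -0.091 to 0.0011 under pioglitazone in PPFP cells and from -0.17 to 0.36 in its difference between lines. That difference for Psme2 ran from -0.16 to 0.17 and was -0.030 by library size alone. Without single libraries Psme1 (-0.26, adjusted p = 0.032, without replicate 2 of EV-Pio), Psmb10 (0.61, 0.026, with pioglitazone, without replicate 3 of EV+Pio) and Tap1 (0.22, 0.048, for pioglitazone in PPFP cells, without replicate 1 of PPFP+Pio) were called. Rows with few counts, such as RT1-DOb and RT1-T24-3, could show large differences only. Peaks near the members were not analysed here.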
